A study of Homo sapiens with 134 samples.

Results

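The keratin and adhesion genes described here are 34 genes of the stratified epithelial cell, taken as a list of symbols. They comprise 4 basal keratins, 3 stress keratins, 4 simple keratins, TP63 with 3 genes it controls, 4 integrins, 4 hemidesmosome and anchoring genes, 4 desmosomal cadherins, 4 desmosomal plaque genes and 3 other surface adhesion genes. Each gene was represented by the probe of highest mean log2 signal over all arrays. A named probe was found for 28 of the 34 genes, out of 19381 gene symbols on the array, and all 28 probes were among the 24350 of 48701 probes bright enough to be tested. KRT17, KRT6A, KRT6B, TP63, LAMA3 and COL17A1 were not analysed here.

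Basal cells of the airway and of other stratified epithelia carry keratin filaments built from pairs of a type I and a type II keratin, above all KRT14 with KRT5. The filaments are tied to neighbouring cells at desmosomes, where the cadherins DSG and DSC bridge the membranes and plakoglobin (JUP), the plakophilins and desmoplakin (DSP) link them to keratin. At the base of the cell they are tied to hemidesmosomes, in which the α6β4 integrin binds laminin-332 and the plakin encoded by DST binds keratin. The transcription factor p63 maintains basal identity and controls several of these genes.

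The cells were HBEC3KT, a single line of human bronchial epithelial cells immortalized with CDK4 and hTERT, so the data hold no variation between donors. Cells received 0.5 or 1 Gy of 56Fe or of 28Si ions, 1 or 3 Gy of γ-rays, or a mock irradiation, and RNA was taken after 1, 4, 12 or 24 h. The γ-ray arm is called x-ray in the array labels and is named here after the methods of the study. Reference cells were collected before irradiation. The 134 Illumina HumanWG-6 V2 arrays gave 116 samples (71 irradiated, 36 mock, 9 reference) in 9 runs, a run being 1 radiation type in 1 of 5 campaigns, with 3 runs per radiation type. Runs are the replicates, and several runs share a campaign. The 56Fe run of March 2008 had no sample of 0.5 Gy at 12 h, so its response there rests on 1 Gy alone.

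Values are log2 signals after background correction and quantile normalization, and a level of one probe cannot be set against that of another. The median raw signal ran from 45.8 to 115.8 between arrays. The basal cell markers KRT5 and KRT14 were well above the median of all probes (6.23), but the basal marker NGFR lay at 6.20 and ITGA6 at 6.53. The 7 fibroblast, 5 ciliated cell, 4 secretory cell and 3 endothelial markers had mean log2 signals from 5.89 to 6.75. Of the 3 leukocyte markers measured, CD14 stood at 8.27, while CD3E, at 6.14, was near the median. No tested marker of these 5 cell types passed the comparison of 24 with 12 h described below. A single array stood apart for a member of the list. On the mock array of the 56Fe run of November 2009 at 4 h the raw KRT7 signal was 10.6, below the median of that array (90.1), whereas it was 1455 or higher on the other 133 arrays. Results for KRT7 are given with and without that sample.

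Promoter sequence is shown for genes whose level changed with time, to give the regulatory sequence that lies beside the measurements below. It was read from the RefSeq promoter set of build GRCh38.p14, which matched 19 of the 34 genes with 28 start sites. KRT14, KRT15, KRT16, KRT7, ITGB4 and CDH3 had no entry there. The 150 bases before the start are given 5′ to 3′ on the strand of the gene. Capitals mark matches on either strand to a TATA box (TATAAA), an AP-1 site (TGANTCA), a KLF site (CACCC), a GC box (GGGCGG) or the p53 family half-site. DSG3 and DSC3 rose at 24 h, PERP is a p63 target that rose with them, and S100A2 fell.
DSG3 promoter, chr18:31447591-31447740, plus strand: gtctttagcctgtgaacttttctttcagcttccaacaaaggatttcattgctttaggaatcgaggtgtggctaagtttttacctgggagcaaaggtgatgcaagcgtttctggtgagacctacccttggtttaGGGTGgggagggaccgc
DSC3 promoter, chr18:31042743-31042892, minus strand: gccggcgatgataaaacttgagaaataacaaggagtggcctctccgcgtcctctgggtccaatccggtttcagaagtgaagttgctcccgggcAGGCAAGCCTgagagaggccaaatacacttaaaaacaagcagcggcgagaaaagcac
PERP promoter, chr6:138107420-138107569, minus strand: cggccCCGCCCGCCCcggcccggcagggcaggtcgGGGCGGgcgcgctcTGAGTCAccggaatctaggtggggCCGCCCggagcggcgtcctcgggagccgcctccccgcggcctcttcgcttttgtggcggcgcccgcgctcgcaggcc
S100A2 promoter, chr1:153565845-153565994, minus strand: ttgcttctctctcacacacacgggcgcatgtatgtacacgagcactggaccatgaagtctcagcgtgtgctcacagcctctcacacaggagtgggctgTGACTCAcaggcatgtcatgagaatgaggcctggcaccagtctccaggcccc
The S100A2 stretch held an AP-1 site that began at position -52, and the PERP stretch held an AP-1 site at -101 together with 4 GC boxes, of which the pair nearest the 5′ end overlap. S100A2 has another start site in the set, not shown here, whose 150 bases held none of these motifs. The DSC3 stretch held a p53 family half-site at -57 and the DSG3 stretch a KLF site at -17. An AP-1 site was found in 4 of the 28 member promoters (S100A2, LAMB3, PERP and LAMA3) and in 4.17% of 35116 promoters of the same length. A p53 family half-site was found in 4 of the 28 (COL17A1, KRT5, KRT8 and DSC3) and in 3.17% of all, and a TATA box in 2 of the 28 (ITGA6 and ITGB1) and in 6.71% of all. KLF sites and GC boxes were common, in 14 and 13 of the 28 and in 39.6% and 36.8% of all promoters. These are matches of letters, and no binding was measured.

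Levels are given by role. Among basal keratins, KRT5 had a mean log2 signal of 13.22 and KRT14 of 12.70, while KRT15, a type I keratin of basal progenitor cells, ranged from 7.66 to 12.62 over samples. The stress keratin KRT16, which is induced in wounded or hyperproliferative epidermis, lay at 7.05. KRT18 and KRT19, simple keratins typical of single-layered epithelia, lay at 14.40 and 14.46. The integrin β1 chain ITGB1 lay at 14.06 and the laminin-332 chain LAMB3 at 13.22. ITGA6, the partner of ITGB4, lay at 6.53, near the median of all probes, and did not exceed 6.92 in any sample. CDH1, encoding E-cadherin, lay at 7.36, and CDH3, encoding P-cadherin, at 11.96. The p63 target S100A2 lay at 14.14. KRT5 in mock samples varied by 0.29 (SD) between run means, more than the 0.19 that separated its lowest from its highest time mean.

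The mock samples answer how the genes move with time in culture without radiation. In a limma F test over 1, 4, 12 and 24 h with the run as a block, 11 of 28 members changed (39.3%), against 22% of all tested probes. They were DSG3, DST, KRT15, CDH3, KRT16, LAMB3, S100A2, DSC3, ITGB4, PERP and PKP1. When each run was left out in turn, the call was lost in 6 of 9 fits for PKP1, 5 for PERP, 4 for ITGB4, 2 for DSC3 and 1 for LAMB3. Of the 28 members 16 had their lowest mock mean at 12 h and 9 at 4 h, KRT7 among the latter through the array at background, and 17 had their highest mean at 24 h. The low position of 4 h depended on the scaling: 4 of 28 members lay above 1 h there (median -0.09), and 18 did with arrays scaled to a common median (median 0.04). Against 1 h, single members passed: DST at 4 h (background 6.51%), LAMB3 at 12 h (5.08%) and KRT15 at 24 h (3.54%). Between reference cells and mock cells at 1 h no member passed (0.546% of all probes). The smallest p there belonged to ITGB1, at -0.14 (adjusted p = 0.453), SFN, at 0.18 (adjusted p = 0.551), and DSC2, at -0.24 (adjusted p = 0.564), and 1 member had an unadjusted p under 0.05. Without the 56Fe run of March 2008 ITGB1 and DSC2 both stood at -0.08.

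The contrast of 24 h with 12 h, added after the time course had been seen, called more members than any contrast with 1 h. In it 12 of 28 members passed, against 13% of all probes. Of these 11 rose, where 5.92% of all probes rose, and S100A2 alone fell, where 7.04% of all probes fell. The median member rose by 0.20, and the median of all probes by 0.00. All 4 desmosomal plaque genes and all 4 desmosomal cadherins had a positive difference, 5 of these 8 passing the test, whereas the 4 simple keratins ran from -0.47 to 0.07. The scaling of the arrays mattered for these calls: with arrays scaled to a common median in place of quantile normalization, the median member still rose by 0.20, but 1 member passed at 24 against 12 h (KRT16) and 2 in the time course (KRT15 and KRT16), while the background fell to 0.559% and 4.81%. With the chip as a random block 8 members passed in each comparison, KRT14 being gained at 24 against 12 h. The calls lost were those of LAMB3 (adjusted p = 0.0746), ITGB4 (0.171) and PKP1 (0.139) in the time course, and at 24 against 12 h those of DST (0.0736), PKP1 (0.0741), ITGB4 (0.131), DSP (0.0713) and JUP (0.104). With the campaign as the replicate, in which the runs of a campaign were averaged, 6 members passed in the time course and 7 at 24 against 12 h. The time course calls lost were those of CDH3 (adjusted p = 0.0709), DSC3 (0.115), LAMB3 (0.187), PKP1 (0.27) and ITGB4 (0.362), and the calls lost at 24 against 12 h were those of DSC3 (0.0658), PKP1 (0.146), DSP (0.206), JUP (0.212) and ITGB4 (0.222). The share of all probes called is not given for the chip and campaign settings, so their counts of members cannot be set against it.

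**Figure D1:**
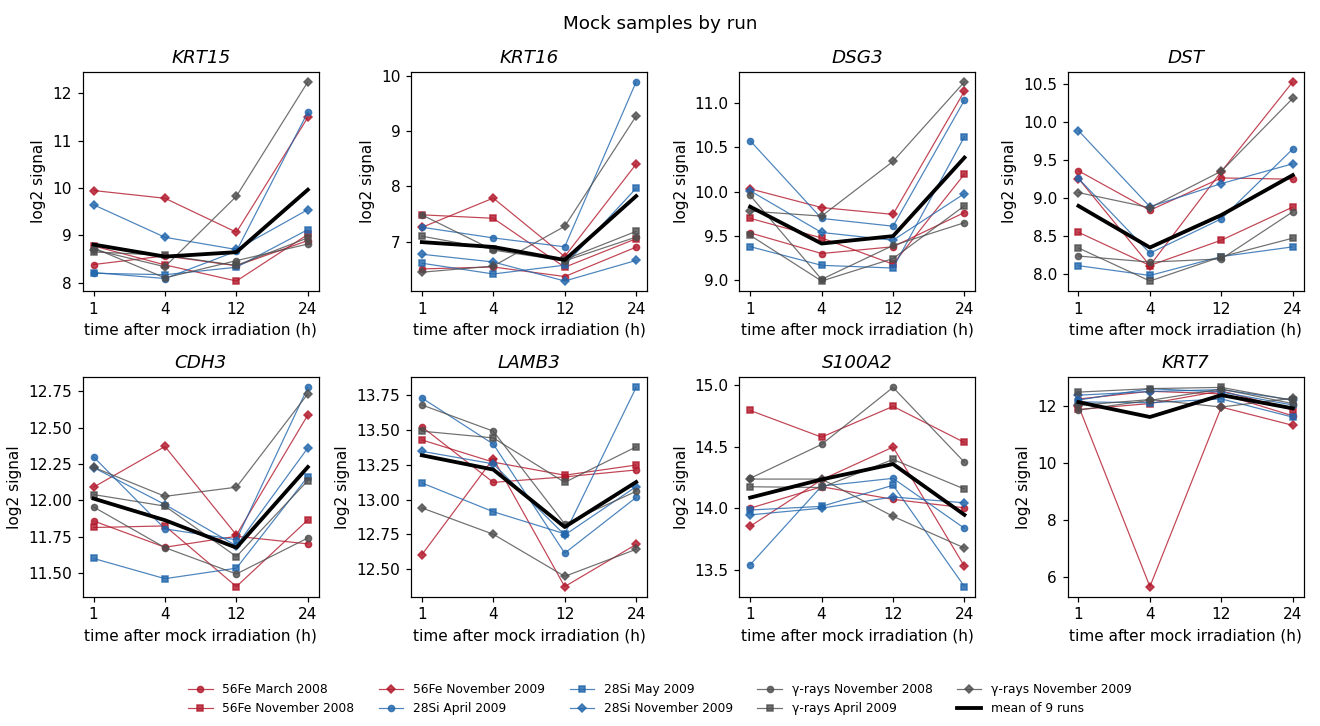
Log2 signal (vertical axes, which differ between panels) of 8 members in mock samples at 1, 4, 12 and 24 h, each thin line a run coloured by radiation type and the thick line the mean of 9 runs. KRT15 reached 11.49, 11.60 and 12.24 at 24 h in 3 runs and 8.82 to 9.55 in the other runs, and the KRT7 panel shows the 1 array at 5.66.

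KRT15 and KRT16 moved most. KRT15 ran from 8.04 to 9.83 (median 8.47) in the 9 mock samples at 12 h and from 8.82 to 12.24 (median 9.12) at 24 h. The rise from 12 to 24 h was 1.32 ± 0.98 (SD, n = 9 runs, adjusted p = 0.00334) and was seen in 9 of 9 runs, although the 2 groups of samples overlapped. It was uneven. In the 28Si run of April 2009 KRT15 rose by 2.93, and in the November 2009 runs of 56Fe and γ-rays it rose by 2.42 in each, while the other 6 runs rose by 0.35 to 0.98. Against 1 h, KRT15 was 1.16 higher at 24 h (adjusted p = 0.0201), a call that was lost without the 28Si run of April 2009 (0.88, adjusted p = 0.105) or the γ-ray run of November 2009 (0.86, adjusted p = 0.0643). KRT16 ran from 6.29 to 7.27 (median 6.65) at 12 h and from 6.66 to 9.89 (median 7.18) at 24 h. Its rise was 1.16 ± 0.92 (SD, n = 9, adjusted p = 0.00419), again positive in 9 of 9 runs and highest in the 28Si run of April 2009 (2.98). KRT14, the main type I keratin of basal cells, rose by 0.41 ± 0.41 without passing, with 0.97 in the same run and -0.11 in the γ-ray run of November 2008. KRT5 differed by 0.15 ± 0.34.

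The desmosomal cadherin DSG3, the desmoglein of basal and lower suprabasal layers, had the smallest p of the list. It ran from 9.14 to 10.34 (median 9.39) at 12 h and from 9.65 to 11.24 (median 10.20) at 24 h in mock samples. The rise was 0.89 ± 0.47 (SD, n = 9, adjusted p = 0.000905), with 9 of 9 runs higher, and it passed whichever run was left out (0.81 to 0.97). Its earlier fall, from a mean of 9.83 at 1 h to 9.41 at 4 h, did not pass (adjusted p = 0.143). DSC3, the desmocollin that accompanies DSG3, ran from 9.29 to 10.09 (median 9.71) at 12 h and from 9.23 to 10.995 (median 10.16) at 24 h. DSC3 rose by 0.46 ± 0.46, in 7 of 9 runs. DSG2 and DSC2, the cadherins also found in simple epithelia, differed by 0.08 ± 0.25 and 0.01 ± 0.26 and did not pass.

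Of the 4 plaque genes 3 rose. Plakophilin 1 (PKP1), which strengthens desmosomes of stratified epithelia, ran from 10.14 to 10.53 (median 10.32) at 12 h and from 10.23 to 11.56 (median 10.55) at 24 h. PKP1 rose by 0.48 ± 0.48 (SD, n = 9), and the call was lost without the 56Fe run of November 2009 (adjusted p = 0.0627) or the 28Si run of April 2009 (adjusted p = 0.0942). Desmoplakin (DSP) rose by 0.47 ± 0.51 and plakoglobin (JUP) by 0.42 ± 0.29. For DSP the call was lost in 3 of 9 fits that left out a run, and for JUP in 7 of 9, so these calls rest on the full set of runs. JUP was nevertheless higher at 24 h in 9 of 9 runs. A second, dimmer probe gave 0.25 for JUP (adjusted p = 0.231) and 0.16 for DSP (adjusted p = 0.161). PKP3 differed by 0.06 ± 0.34.

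Among anchoring genes, DST, which encodes the hemidesmosomal plakin BPAG1 among other isoforms, fell before it rose. It ran from 8.10 to 9.88 (median 9.07) at 1 h, from 7.90 to 8.88 (median 8.15) at 4 h and from 8.35 to 10.53 (median 9.24) at 24 h. The fall to 4 h was -0.55 (adjusted p = 0.0164) and occurred in 9 of 9 runs. That call was lost without the 28Si run of April 2009 (adjusted p = 0.0755), the 28Si run of November 2009 (adjusted p = 0.0669) or the mock sample in which KRT7 was at background (-0.42, adjusted p = 0.0605). From 12 to 24 h DST rose by 0.53 ± 0.42, a call that was lost without the 28Si run of April 2009 (0.48, adjusted p = 0.0626). A second DST probe rose by 0.38 (adjusted p = 0.0384). LAMB3, the β3 chain of laminin-332, ran from 12.60 to 13.73 (median 13.43) at 1 h and from 12.37 to 13.18 (median 12.75) at 12 h. LAMB3 fell by 0.52 (adjusted p = 0.0106), in 9 of 9 runs. At 24 h its median was 13.09, and the difference from 12 h, 0.32, did not pass (adjusted p = 0.0785). The call of the LAMB3 fall from 1 to 12 h was lost without the 28Si run of April 2009 (-0.44, adjusted p = 0.0665). It was also lost without the γ-ray run of November 2008 (-0.47, adjusted p = 0.0641). In the F test of the time course the dimmer LAMB3 probes did not pass (adjusted p = 0.345 and 0.89). The mean of all LAMB3 probes did not pass there either (adjusted p = 0.0525). ITGB4, the β4 chain of the hemidesmosomal integrin, rose by 0.34 ± 0.22 from 12 to 24 h in 8 of 9 runs, and the call was lost in 3 of 9 fits that left out a run. A second, dimmer ITGB4 probe gave 0.05 (adjusted p = 0.708). ITGA3 and ITGB1, which form the laminin receptor α3β1, differed by 0.11 ± 0.25 and 0.03 ± 0.12.

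P-cadherin (CDH3), the classical cadherin of basal layers, ran from 11.41 to 12.09 (median 11.69) at 12 h and from 11.70 to 12.78 (median 12.16) at 24 h. CDH3 rose by 0.55 ± 0.32 (SD, n = 9, adjusted p = 0.00155), in 8 of 9 runs, and passed whichever run was left out. E-cadherin (CDH1) differed by 0.25 ± 0.14 on a dim probe, higher in 8 of 9 runs, and did not pass. EPCAM, a surface protein of simple and progenitor epithelia, differed by -0.03 ± 0.19.

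The genes controlled by p63 went different ways. PERP, a membrane protein needed for desmosome assembly, rose by 0.35 ± 0.30 from 12 to 24 h in 9 of 9 runs, but the call was lost in 3 of 9 fits that left out a run. S100A2, a calcium-binding protein of basal keratinocytes, ran from 13.93 to 14.98 (median 14.24) at 12 h and from 13.36 to 14.54 (median 14.00) at 24 h. S100A2 fell by 0.41 ± 0.32 (adjusted p = 0.00568), in 9 of 9 runs. SFN, the 14-3-3σ protein that is also a p53 target, differed by 0.03 ± 0.21.

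Values of the simple keratin KRT7 were lower at 24 than at 12 h. It ran from 11.97 to 12.66 (median 12.50) at 12 h and from 11.33 to 12.28 (median 12.04) at 24 h in mock samples. The difference was -0.47 ± 0.32, negative in 8 of 9 runs. With all samples the adjusted p was 0.581, and without the 1 mock sample at background it was 0.00085. KRT7 was singled out here after its values had been seen. KRT18, the filament partner of KRT8, differed by -0.19 ± 0.35, with -0.59 in the 56Fe run of November 2009, -0.63 in the 28Si run of April 2009 and -0.69 in the γ-ray run of November 2009. KRT8 and KRT19 differed by 0.07 ± 0.32 and 0.05 ± 0.16.

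Genes of squamous differentiation and of proliferation also differed between runs. The mean of 10 tested squamous genes, as 24 h minus 1 h in mock samples, was 0.83 in the γ-ray run of November 2009 and 0.80 in the 28Si run of April 2009. In the other 7 runs it ran from -0.23 to 0.35, with 0.33 in the 56Fe run of November 2009. The steep KRT15 rises were counted from 12 h, where the squamous mean minus that at 1 h was -0.14 in this 56Fe run. It was -0.09 in the 28Si run of April 2009 and 0.10 in the γ-ray run of November 2009. In the remaining runs it ran from -0.48 to 0.13. Counted from 12 h, the 56Fe run of November 2009 lay slightly above those remaining runs. As 24 h minus 1 h, the mean of 5 proliferation genes was -1.83 in the γ-ray run of November 2009. It was 0.22 in the 28Si run of April 2009 and 1.80 in the 56Fe run of November 2009. The part of these genes in the differences between runs was not tested. Of 16 squamous genes listed 10 were bright enough to be tested. Of these 6 rose from 12 to 24 h, where 5.92% of all probes rose, and none fell. Among those that rose were SPRR1B (0.99), S100A8 (0.91) and KLF4 (0.64). Of 5 other desmosome genes the cornified envelope plakin PPL alone passed, at 1.72. Of 10 other hemidesmosome and basement membrane genes 5 passed, with COL7A1 (0.75), the anchoring fibril collagen, LAMB2 (0.60), LAMA5 (0.49) and LAMB1 (0.35) higher and COL4A1 (-0.24) lower. Of 7 other keratins KRT23 rose (0.55) and KRT80 fell by 0.26. Of 7 adherens and tight junction genes CLDN1 alone passed (1.04), and of 5 proliferation genes none did. Of all tested probes 13% passed this comparison of 24 with 12 h. The counts of these gene lists are given with quantile normalization only.

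The same comparisons over time were made in the irradiated samples of each run. In them 7 of 28 members changed with time (25%), near the 22.3% of all tested probes. Of these 7 members 6 were also among the 11 of the mock samples, an overlap that was not set against that of all probes. The other was KRT7. At 24 h against 1 h KRT15 (1.21) and KRT16 (0.87) passed, against 6.23% of all probes. At 24 h against 12 h 6 of 28 passed, against 10.3% of all probes. KRT15 (1.18 ± 0.86), KRT16 (1.14 ± 0.82), DSG3 (0.73 ± 0.48) and ITGB4 (0.23 ± 0.31) were higher, where 4.48% of all probes rose. KRT7 (-0.31 ± 0.32) and S100A2 (-0.31 ± 0.38) were lower, where 5.84% of all probes fell. KRT15, KRT16 and DSG3 rose in 9 of 9 runs. KRT15 rose by 2.45 in the 28Si run of April 2009, by 2.37 in the γ-ray run of November 2009 and by 1.83 in the 56Fe run of November 2009, whose irradiated and mock samples come from the same campaign. The median member rose by 0.04 in irradiated samples and by 0.20 in mock samples. Whether the time course differed between irradiated and mock samples was not tested as such.

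**Figure D2:**
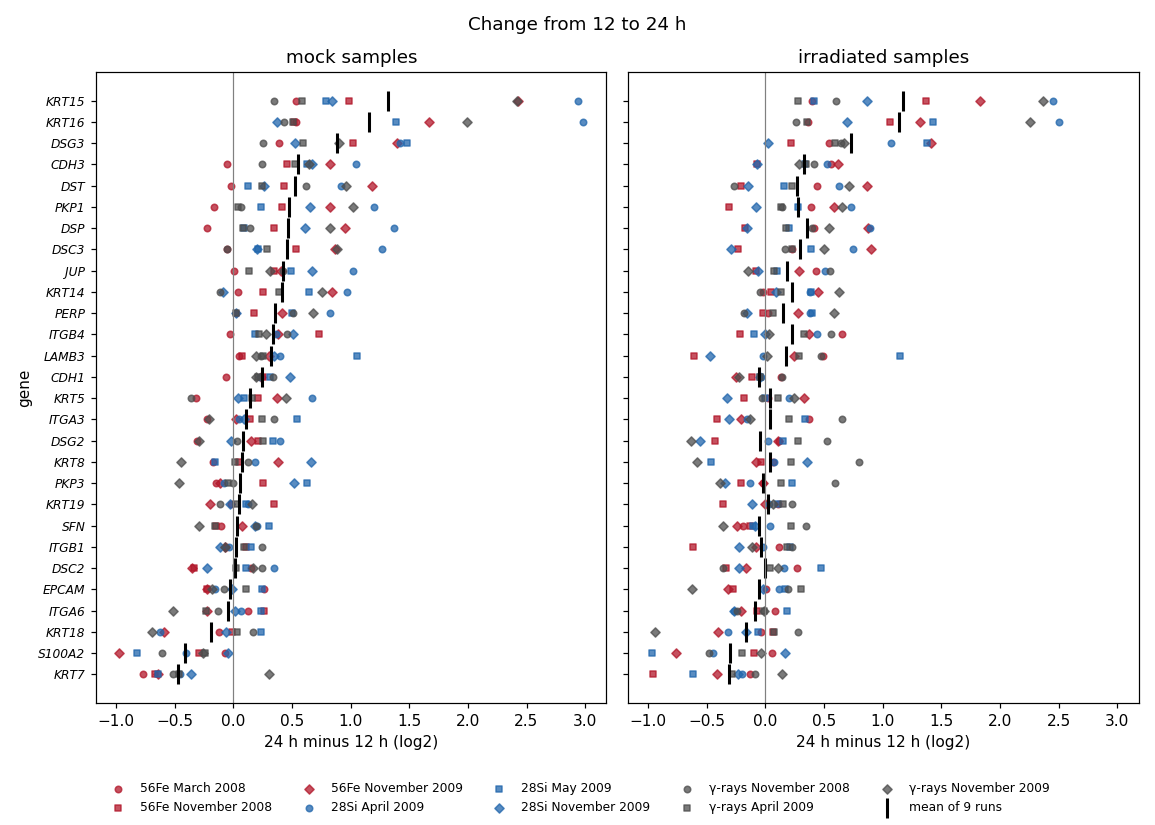
Difference between 24 h and 12 h (log2, horizontal axis) of 28 genes (vertical axis) in mock samples (left) and irradiated samples, the mean of both doses (right), with a point per run and a bar at the mean of 9 runs. KRT15, KRT16 and DSG3 lie to the right of 0 in every run in both panels, and S100A2 lies to the left in every mock run.

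Radiation was compared with mock within runs. The response of a run at a given time was taken as the log2 ratio of its irradiated samples, averaged over dose, to its mock sample. Averaged over the 3 radiation types, the largest absolute response at any time was smaller than the range of the mock time means in 27 of 28 members. Within a radiation type it was larger than that range in 9 members for 56Fe, in 10 for 28Si and in 3 for γ-rays, for example JUP, with a 28Si response of 0.51 at 12 h against a range of 0.42. The 9 members for 56Fe include KRT7, through the mock array at background. These responses are means of 3 runs, whereas the range is of means of 9 runs. The range spans the most distant of the 4 time means, whereas a response is a difference from mock, so the measures are not alike. No member passed for the response shared by the 3 radiation types at 1 h (0% of all probes), 4 h (0.0534%), 12 h (0.0945%) or 24 h (0.0123%), nor for the mean response over the 4 times (0.00821%). Unadjusted p values under 0.05 were seen for 0, 3, 8 and 3 of 28 members at 1, 4, 12 and 24 h, or 0%, 10.7%, 28.6% and 10.7%, against 3.41%, 5.09%, 8.84% and 5.66% of all probes. At 1 h 17 of 28 members lay above mock with both doses averaged (median 0.01). With the lower dose alone 24 of 28 did (median 0.06) and with the higher dose alone 8 of 28 (median -0.04). At 4 h 27 of 28 members lay above mock (median 0.06), but 15 did with arrays scaled to a common median (median 0.01). Without the mock sample in which KRT7 was at background, 24 of 28 did (median 0.06). At 12 h 23 of 28 members lay above mock and the median member was 0.07 higher (27 of 28 and 0.17 with arrays scaled to a common median). That median ran from 0.04 without the 28Si run of November 2009 to 0.13 without the 28Si run of May 2009. At 24 h 11 of 28 lay above mock, with a median of -0.03. Of all tested probes 49.8%, 49.5%, 49.8% and 49.6% lay above mock at 1, 4, 12 and 24 h with both doses averaged. That share is not given for a single dose, so the counts of members by dose cannot be set against it. The members of a run share its mock sample at each time, so the members counted are not independent. With the lower dose alone 19 of 28 lay above mock at 24 h (median 0.04) and with the higher dose alone 5 of 28 (median -0.11), and the difference between these counts was not tested. When a run was left out, the count at 24 h went from 5 of 28 (median -0.08, without the 56Fe run of March 2008) to 15 of 28 (median 0.02, without the 56Fe run of November 2008). The members with the smallest p for the mean response were LAMB3 (0.11, adjusted p = 0.627), SFN (0.09, adjusted p = 0.627) and KRT14 (0.08, adjusted p = 0.649).

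**Figure D3:**
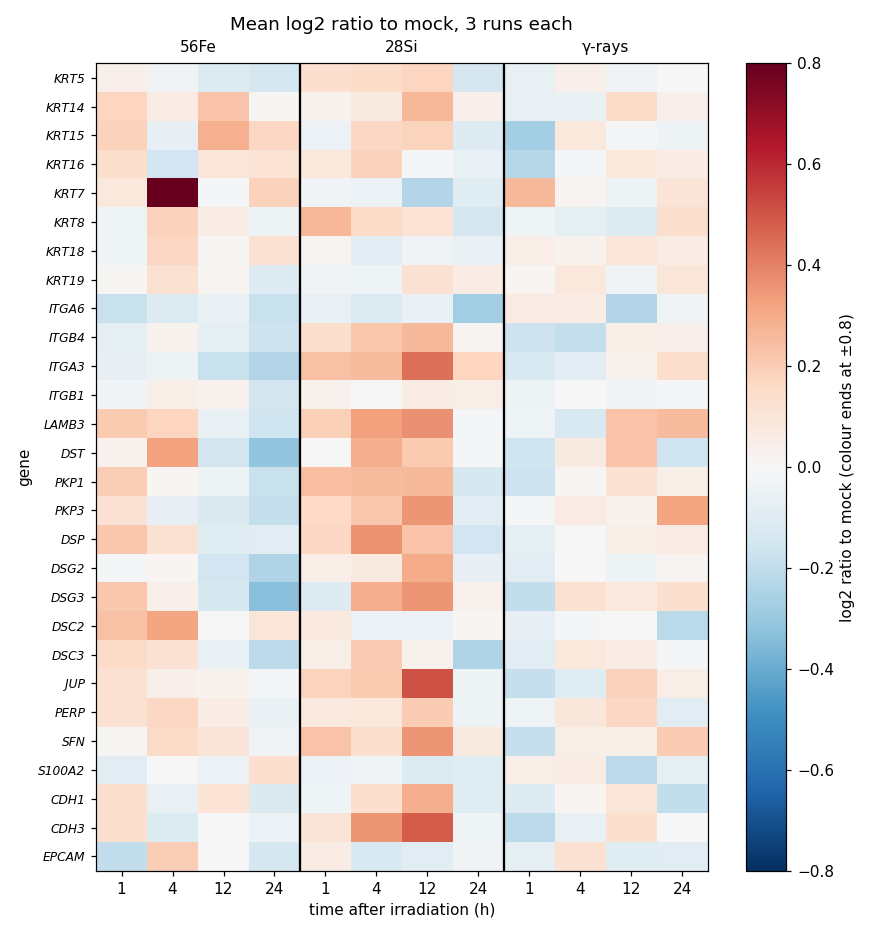
Mean log2 ratio to mock (colour, red higher and blue lower, ending at 0.8) of 28 genes (rows) at 1, 4, 12 and 24 h (columns) after 56Fe, 28Si and γ-rays, 3 runs each. The darkest cell is KRT7 at 4 h after 56Fe, whose mean of 2.25 comes from 1 mock array, and in the 28Si block at 12 h the 8 desmosomal genes run from -0.05 (DSC2) to 0.51 (JUP).

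At 12 h KRT14 came closest to the threshold. It ran from 12.16 to 12.94 (median 12.47) in the 9 mock samples, from 12.21 to 13.03 (median 12.66) in the 8 samples of the lower dose and from 12.29 to 13.28 (median 12.75) in the 9 of the higher dose, so that the groups overlapped. The response was 0.21 ± 0.16 (SD, n = 9 runs), positive in 8 of 9 runs (adjusted p = 0.0906). With the higher dose alone it was 0.27 and passed (adjusted p = 0.0179). JUP ran from 11.04 to 12.07 (median 11.54) in mock samples and from 11.18 to 12.62 (median 11.70) at the higher dose. Its response was 0.24 ± 0.30 (adjusted p = 0.157), above 0 in 9 of 9 runs, but 6 of the runs lay between 0.00 and 0.13, and the 28Si runs of April and November 2009 and the γ-ray run of November 2009 lay at 0.65, 0.75 and 0.49. Without the 28Si run of May 2009 it passed (0.30, adjusted p = 0.0492). SFN ran from 12.64 to 13.37 (median 12.93) in mock samples and from 12.60 to 13.66 (median 13.22) at the higher dose, a response of 0.17 ± 0.17 (adjusted p = 0.194). KRT15, the member that moved most with time, differed from mock by 0.15 ± 0.33 at 12 h, and its response was spread from -0.43 to 0.83.

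**Figure D4:**
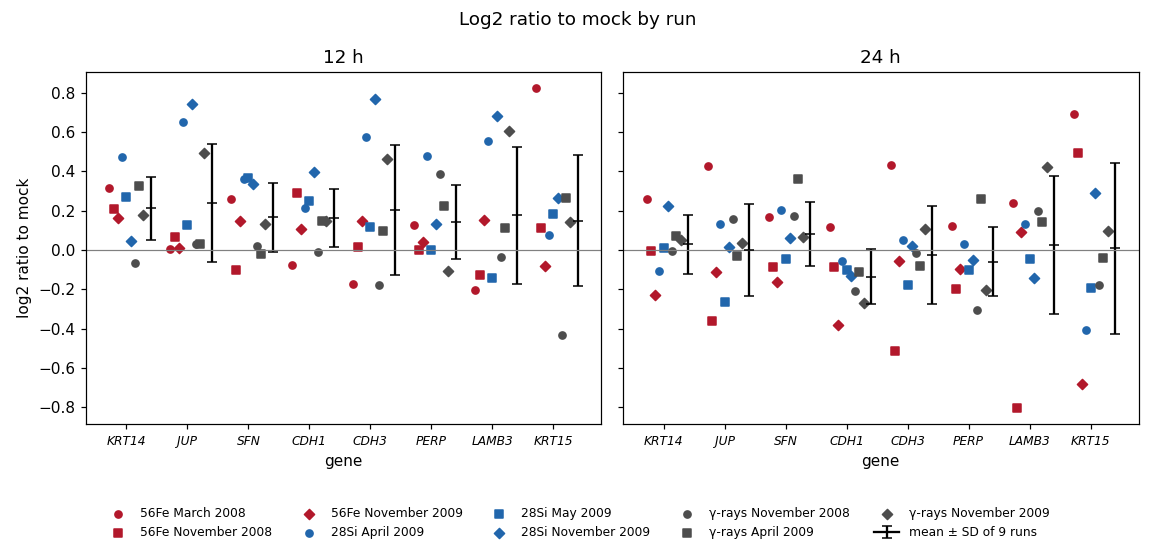
Log2 ratio to mock (vertical axis) of 8 genes at 12 h (left) and 24 h (right), a point per run coloured by radiation type, with the mean and SD of 9 runs beside them. At 12 h the KRT14 points lie above 0 in 8 of 9 runs, and at 24 h its mean is 0.03.

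At the other times the smallest p values rested on small differences. At 1 h LAMB3 (0.12), KRT8 (0.07) and PKP3 (0.09) had an adjusted p of 1. Leaving out 1 run moved LAMB3 to 0.05 (without 56Fe November 2009), KRT8 to 0.03 (without γ-rays April 2009) and PKP3 to 0.04 (without 56Fe November 2009). At 4 h KRT7 stood at 0.74 ± 2.18 (adjusted p = 0.93), and without the run that holds the array at background it was 0.02 ± 0.13 (n = 8 runs). DST at 4 h was 0.23 above mock (adjusted p = 0.953), and 0.14 without the 56Fe run of November 2009, and SFN 0.11 above mock (adjusted p = 0.97). At 24 h ITGA6 (-0.16), CDH1 (-0.14) and DSC3 (-0.15) were the first members, with adjusted p of 0.8, 0.8 and 0.861, the former 2 being dim probes. Without the 56Fe run of November 2008 DSC3 stood at -0.07.

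By radiation type, an F test over the 4 times called no member after 56Fe (0.00821% of all probes), 28Si (0.0657%) or γ-rays (0.0123%), and none for the difference between radiation types (0%). After 28Si 9 of 28 members had an unadjusted p under 0.05 (32.1%, against 9.65% of all probes), after 56Fe 1 (3.57%, against 4.48%), and after γ-rays none (0%, against 6.46%). SFN had the smallest p after 28Si (adjusted p = 0.102). Its response to 28Si at 12 h was 0.36, 0.36 and 0.34 in the 3 runs, against 0.10 ± 0.18 after 56Fe and 0.05 ± 0.08 after γ-rays. JUP followed (adjusted p = 0.112), with 0.51 ± 0.33 after 28Si, 0.03 ± 0.03 after 56Fe and 0.19 ± 0.27 after γ-rays at 12 h. CDH3 (adjusted p = 0.113) stood at 0.35 ± 0.07 at 4 h and 0.49 ± 0.33 at 12 h after 28Si. With the higher dose alone SFN (adjusted p = 0.00717) and JUP (adjusted p = 0.0189) passed for 28Si. JUP also passed for 28Si without the 56Fe run of March 2008 (adjusted p = 0.0477), a fit that kept all 28Si runs. The differences between radiation types of SFN, CDH3 and ITGA3 had adjusted p of 0.785, 0.785 and 0.795. After 56Fe, KRT7 came first (adjusted p = 0.874) through the array at background, followed by KRT14 and EPCAM with an adjusted p of 1. After γ-rays SFN came first (adjusted p = 0.775), then PKP3 (0.884) and JUP (0.905).

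The dose comparison asked whether 1 Gy differed from 0.5 Gy for the ions and 3 Gy from 1 Gy for γ-rays. No member passed after 56Fe (0% of all probes), 28Si (0.678%) or γ-rays (0.821%). After 28Si JUP had the smallest p (adjusted p = 0.0759). The higher minus the lower dose was -0.33 ± 0.39 at 1 h, -0.45 ± 0.45 at 4 h and 0.64 ± 0.38 at 12 h (n = 3 runs), so the sign turned between 4 and 12 h. At 12 h the 3 runs stood at 0.44, 0.39 and 1.08. ITGA3 behaved alike (adjusted p = 0.0942), with -0.34 ± 0.23 at 4 h and 0.56 ± 0.32 at 12 h. SFN came next (adjusted p = 0.177), at 0.54 ± 0.31 at 12 h. At 12 h the doses of 28Si lay on different chips in each of the 3 runs, so dose and chip cannot be told apart there. JUP passed without the 28Si run of April 2009 (adjusted p = 0.0277), and ITGA3 passed without the 56Fe run of November 2009 (adjusted p = 0.0396). The latter fit kept all 28Si runs, and its spread is pooled over radiation types.

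After 56Fe the integrin chains came first: ITGA3 (adjusted p = 0.317), ITGB4 (adjusted p = 0.324) and the simple keratin KRT19 (adjusted p = 0.383). At 24 h ITGB4 was lower at the higher dose in 3 of 3 runs, by -0.72, -1.09 and -0.39, and ITGA3 stood at -0.72, -1.02 and -0.01. The doses of 56Fe at 24 h lay on different chips in 3 of 3 runs, so dose and chip cannot be told apart there. The low values of the run of November 2008 at 24 h were not particular to the integrins: among others LAMB3 stood at -1.62 there, DSG3 at -1.44, DSC3 at -1.41, CDH3 at -1.40, PKP1 at -1.20 and DSP at -1.12, and the highest member was KRT16, at 0.59. Without the run of November 2009, which left 2 runs, and at 12 h 1 run whose spread is taken from the other groups of the fit, 5 members passed for 56Fe, against 3.61% of all probes in that fit: ITGA3 (adjusted p = 0.014), ITGB4 (adjusted p = 0.0276), DSP, LAMB3 and PKP1. After γ-rays EPCAM came first (adjusted p = 0.122). EPCAM was lower at 3 than at 1 Gy in 3 of 3 runs both at 12 h (-0.30, -0.26 and -0.48) and at 24 h (-0.14, -0.40 and -1.02), and higher in 3 of 3 runs at 1 h (0.14 ± 0.01). S100A2 (adjusted p = 0.235) and KRT14 (adjusted p = 0.641) followed.

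**Figure D5:**
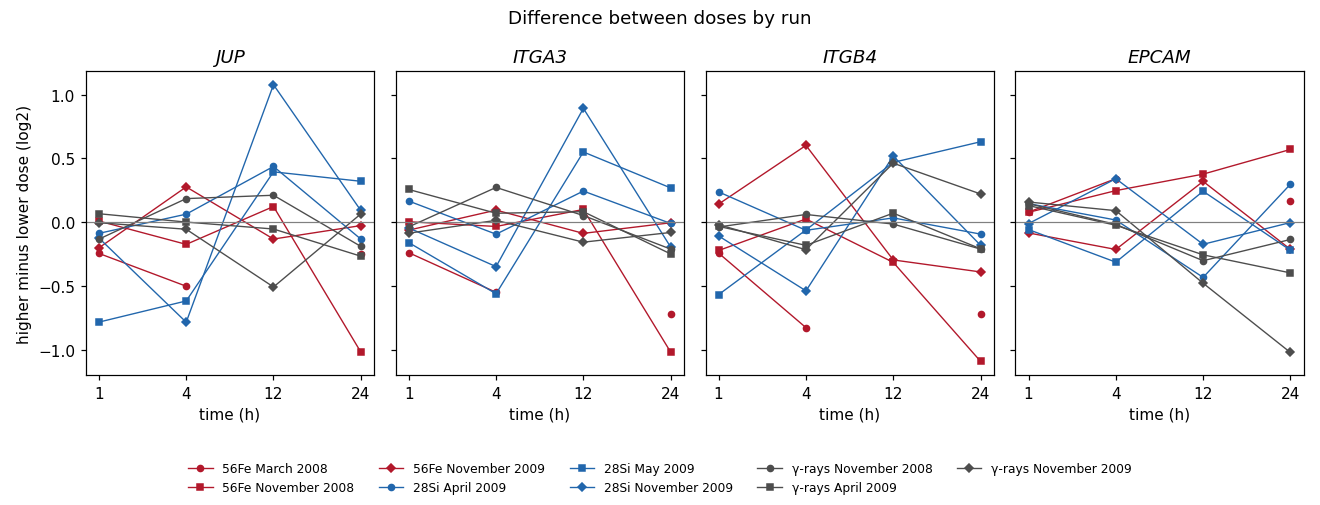
Higher minus lower dose (log2, vertical axis) of JUP, ITGA3, ITGB4 and EPCAM at 1, 4, 12 and 24 h, a line per run coloured by radiation type, with the 12 h point of the 56Fe run of March 2008 missing. The 28Si lines of JUP and ITGA3 lie above 0 at 12 h in 3 of 3 runs, and the γ-ray lines of EPCAM lie below 0 at 12 and 24 h in 3 of 3 runs.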

How the data were processed

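RNA of 116 samples was measured on 134 Illumina HumanWG-6 V2 arrays. The authors extracted mean bead intensities per probe with BeadStudio and deposited them without normalization. The authors' value table, deposited as log2 values after their background subtraction and quantile normalization, was used as an alternative. Gene symbols came from the platform annotation. Here the intensities underwent normexp background correction (offset 50), quantile normalization and log2 transformation, arrays of a run, dose and time were averaged, and probes with a mean above 6.23 were tested with limma 3.58.1 (R 4.3.3) with Benjamini-Hochberg adjustment over all 24350 probes at 0.05. The mock fit held the run as a block, which is given by the design. Irradiated and mock samples of a run and time deviated together (71 pairs, median correlation 0.68, 0.27 to 0.87), which bears on forming responses within runs. Whether the mock samples of a run deviated together over its times was not tested. Responses and dose differences were formed within runs and fitted with a mean per radiation type and time. The 4 times of a run were treated as independent responses, although they share a culture campaign. In the mock fit the p-values rest on the spread left after the run and time means are removed. For responses and dose differences they rest on the spread of runs within a radiation type and time, pooled over these groups. Only the mean response over the 4 times used 1 value per run. The number of arrays limits the precision. The members, the other gene lists and the alternatives were chosen with earlier results of these data known. Members that passed a comparison (the 8 of smallest p first) are named, or else the 3 of smallest p, with the member of highest mean in each role. The fits were tested on simulated data. Figures were drawn with matplotlib 3.10.9 (Python 3.11.15, pandas 2.3.3, numpy 2.4.6).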

Additional observations from a re-analysis of the deposited data

Results flagged for a closer look

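In 80 groups of 9 runs of the named genes, 4 held a run far from the others by Dixon's criterion, which flags about 1 in 20 groups by chance. The KRT7 signal of the 56Fe run of November 2009 was 5.66 in the mock sample at 4 h, and its log2 ratio to mock there was 6.54. Both values come from 1 array, on which the probe lay below the median of the array. The DSG3 level of the γ-ray run of November 2009 was 10.34 in the mock sample at 12 h, the highest of the 9 runs, and KRT15 was also highest there (9.83). The PKP1 level of the 28Si run of May 2009 was 9.85 in the mock sample at 1 h, the lowest of the 9 runs. The cause of these values was not tested.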

How the results depend on the processing

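With arrays scaled to a common median, the members called fell from 11 to 2 in the mock time course, from 12 to 1 at 24 against 12 h, and from 1 to 0 at 4, 12 and 24 h against 1 h. Without the replicate block these counts were 2, 2, 0, 0 and 0, and leaving out the block changed no other count of calls. With the campaign as the replicate they were 6 in the time course, 7 at 24 against 12 h and 0 at 12 against 1 h. The chip as a random block gave 0 at 12 h and 2 at 24 h against 1 h, and no background correction gave 2 at 24 h against 1 h. With irradiated in place of mock samples, an alternative chosen after seeing the data, the counts were 7, 6, 0, 0 and 2. Without the mock sample of KRT7 at background, also chosen after seeing the data, the counts were 12 in the time course, 13 at 24 against 12 h, 0 at 4 h and 2 at 24 h against 1 h. In the time course and at 24 against 12 h the authors' value table gave 10 and 12, no filter on dim probes 9 and 11, and the mean of all probes of a gene 10 and 9, so that the time course call of PERP was lost with the former 2 (adjusted p = 0.0519 and 0.0605). With the higher dose alone 1 member passed for the shared response at 12 h and 2 for 28Si.

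When each run was left out in turn, the members called ranged from 6 to 16 in the mock time course, from 6 to 15 at 24 against 12 h, from 0 to 1 at 4 h, from 0 to 4 at 12 h and from 0 to 2 at 24 h against 1 h, from 0 to 1 for the shared response at 12 h, from 0 to 1 for 28Si, from 0 to 5 for the dose difference of 56Fe and from 0 to 1 for that of 28Si. The lowest counts of the time course and of 24 against 12 h were both without the 28Si run of April 2009. Where no share of all probes is given for an alternative, its count of members cannot be set against the background. No named difference that passed changed its sign under any alternative. The deposited intensities hold no detection p, so the planned filter on detection was not run. The causes were not tested. KRT16, ITGA6 and CDH1 lie near background, where the signal limits what can be measured, and intervals within a radiation type rest on 3 runs.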
